A study of Mus musculus with 6 samples.

Results

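Histone genes were followed in mouse T cell acute lymphoblastic leukemia (T-ALL) driven by Notch, with and without a treatment meant to delete the transcription factor gene Zfx. The members were the probe sets on the array whose annotated symbols, 1 or several, all belong to the histone families H1f, H2ac, H2bc, H3c or H4c or carry the older names that start with Hist1 to Hist4. There were 47 such probe sets of 35556 in the table. Of these, 30 named 1 gene and 17 named several, and together they named 47 of the 21335 genes on the array. By class, 8 belonged to the linker histone H1, 4 to H2A, 9 to H2B, 13 to H3 and 12 to H4, and 1 named both an H2B and an H1 gene.

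Core histones H2A, H2B, H3 and H4 form the protein spool of the nucleosome, and linker histone H1 binds where DNA enters and leaves it. Most of these genes lie in clusters and are replication-dependent: they are transcribed in S phase, and their mRNAs end in a stem-loop that the protein Slbp binds, without a poly(A) tail. Replacement histones such as H2A.Z and H3.3 are made from separate genes throughout the cell cycle, usually from polyadenylated mRNA. Dividing leukemia cells are therefore rich in replication-dependent histone mRNA.

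Each of 3 independent leukemias, lines 14843, 14844 and 14846, had been made by retroviral transfer of the active Notch fragment (Notch-IC) into blood progenitors. These carried a tamoxifen-inducible Cre-ER transgene and a conditional Zfx allele (Zfx fl/y), and both treatment groups share this background. The leukemias grew in sublethally irradiated secondary recipients, which from day 10 after transplant received Vehicle or Tamoxifen by gavage, the latter at 5 mg a day for 3 days. GFP+ T-ALL cells were collected by sorting 48 h after dosing ended, so each group held 3 arrays, 1 for each line, labelled ZFX flox under Vehicle and ZFX null under Tamoxifen. Tamoxifen, Cre activity and Zfx loss cannot be told apart in this design, since no Tamoxifen group lacks Cre or the conditional allele. The labels state neither the age of the hosts nor how many mice gave each sample.

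The Zfx probe set gave 10.98, 10.90 and 10.72 log2 intensity on the Vehicle arrays of lines 14843, 14844 and 14846, and 10.96, 10.98 and 10.86 on the Tamoxifen arrays. The difference of 0.07 ± 0.06 (SE) had a limma adjusted p of 0.49, so the array shows no fall in Zfx. Whether its probes lie in the deleted part is not known here, so the array does not check the genotype labels. Of 15 T cell and T-ALL markers, 13 were measured, at mean log2 intensities from 11.03 to 13.40, and 0 changed by limma's test, with Ptcra, the pre-T cell receptor chain, at an unadjusted p under 0.05 (-0.27 ± 0.08, SE). The difference was negative for 12 of the 13, against 40.8% of all tested probe sets. At an unadjusted p under 0.05, 12.5% of all tested probe sets were lower. Markers of other blood cells were read on probe sets with 1 symbol. The filter was passed by 2 of 5 for B cells and 6 of 9 for myeloid cells. It was also passed by 3 of 4 for erythroid cells and 3 of 6 for NK cells. The B cell genes Cd79a, Ms4a1 and Ebf1 and the NK gene Ncr1 did not pass. Of these 14 tested markers 0 changed by limma, with Lyz2 and Itgam of the myeloid list higher at an unadjusted p under 0.05. The myeloid list summed to 1693 to 2072 linear intensity units on Vehicle arrays and 1774 to 2378 on Tamoxifen arrays. The NK list summed to 4539 to 8809 units on Vehicle arrays and 6987 to 8421 on Tamoxifen arrays, with median within-line log2 differences of 0.65, 0.23 and -0.17 in lines 14843, 14844 and 14846. Most of that sum is Gzma, a granule protease that T cells can also make. The B cell list summed to 562 to 1037 and 637 to 712 units, and the erythroid list to 599.7 to 614.5 and 593.8 to 649.6. The part of other cells in the results was not tested. In sorted bulk cells, fewer cells of a type and less RNA per cell cannot be told apart.

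A mean above 12 log2 intensity, near the top of the array's range, was found for 26 of the 47 histone probe sets. Of these, 11 name 1 gene and 15 name several. These 26 kept nearly the same value on all 6 arrays, whereas the 16 tested members at or below 12 spanned 0.17 to 2.22 log2 units. A probe set's intensity depends on its probes, so these levels do not rank genes against each other. The 10 probe sets that name the same 12 H3 genes had values between 14.11 and 14.37 log2 intensity over all arrays, and the 5 that name the same 11 H4 genes had values between 14.04 and 14.24. The highest value of any probe set on any array was 14.57. These 15 shared probe sets cannot say which gene their signal comes from, and 2 of the H4 sets had identical values, so they are not independent readings. Among the 30 members that name 1 gene, 11 had a mean above 12, and 5 fell below the filter on dim probe sets at 6.66. These 5 were H1f3, H1f8, H2ac8, H3c7 and H3c15, and the other 42 members were tested.

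**Figure D1:**
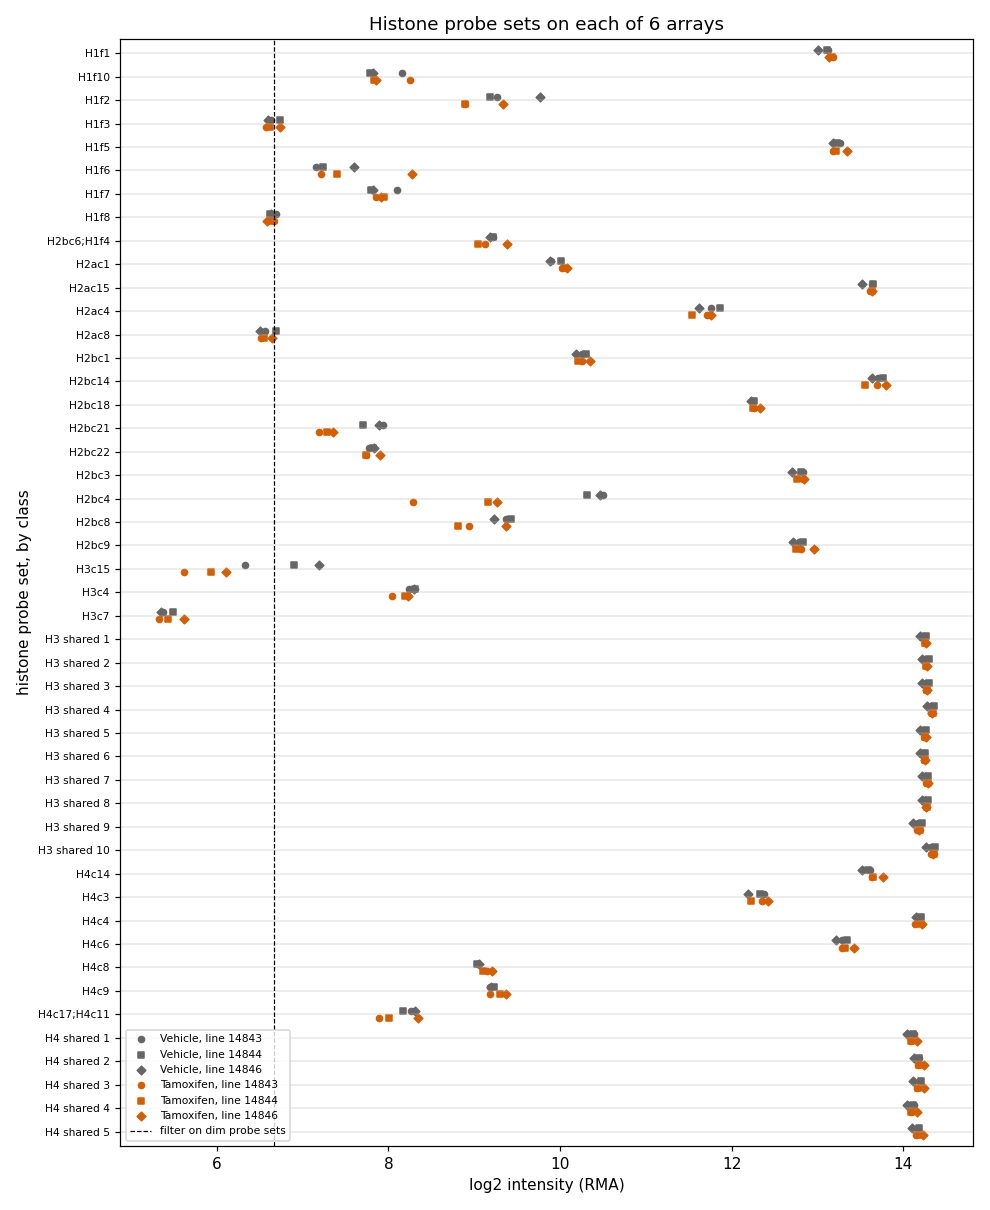
Log2 RMA intensity of the 47 histone probe sets on 6 arrays, grey for Vehicle and orange for Tamoxifen, with a marker shape for each leukemia line and a dashed line at the filter of 6.66. "Shared" rows name 12 H3 or 11 H4 genes and sit above 14, and the Tamoxifen points lie below the Vehicle points for H2bc4, H2bc21, H3c4 and H3c15 and above them for H1f1, H2ac1, H4c8 and H4c14.

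The comparison of treatments asked whether histone mRNA differs after Tamoxifen. It was fitted with limma, with line as a block, over 16387 probe sets that carry a gene symbol and pass the filter, and an adjusted p under 0.05 was called a change. Of the 42 tested members 3 fell and 0 rose: H2bc4 and H2bc21 of the H2B class and the linker histone H1f2. That is 7.14% of members lower, against 4.18% of all tested probe sets. At an unadjusted p under 0.05 the same 3 members were lower, again 7.14%, against 12.5% of all tested probe sets. No member was higher by limma's test, against 1.04% of all tested probe sets, and 0 members rose at an unadjusted p under 0.05, as 10.3% of all tested did. Over all probe sets, 5.22% were called in either direction. The median log2 difference was 0.02 over tested members and 0.03 over all tested probe sets, so the median of the histone set lay close to that of the array. Every Tamoxifen value was below every Vehicle value for 3 members (7.14%, against 10.7% of all tested) and above it for 4 (9.52%, against 12.1%).

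**Figure D2:**
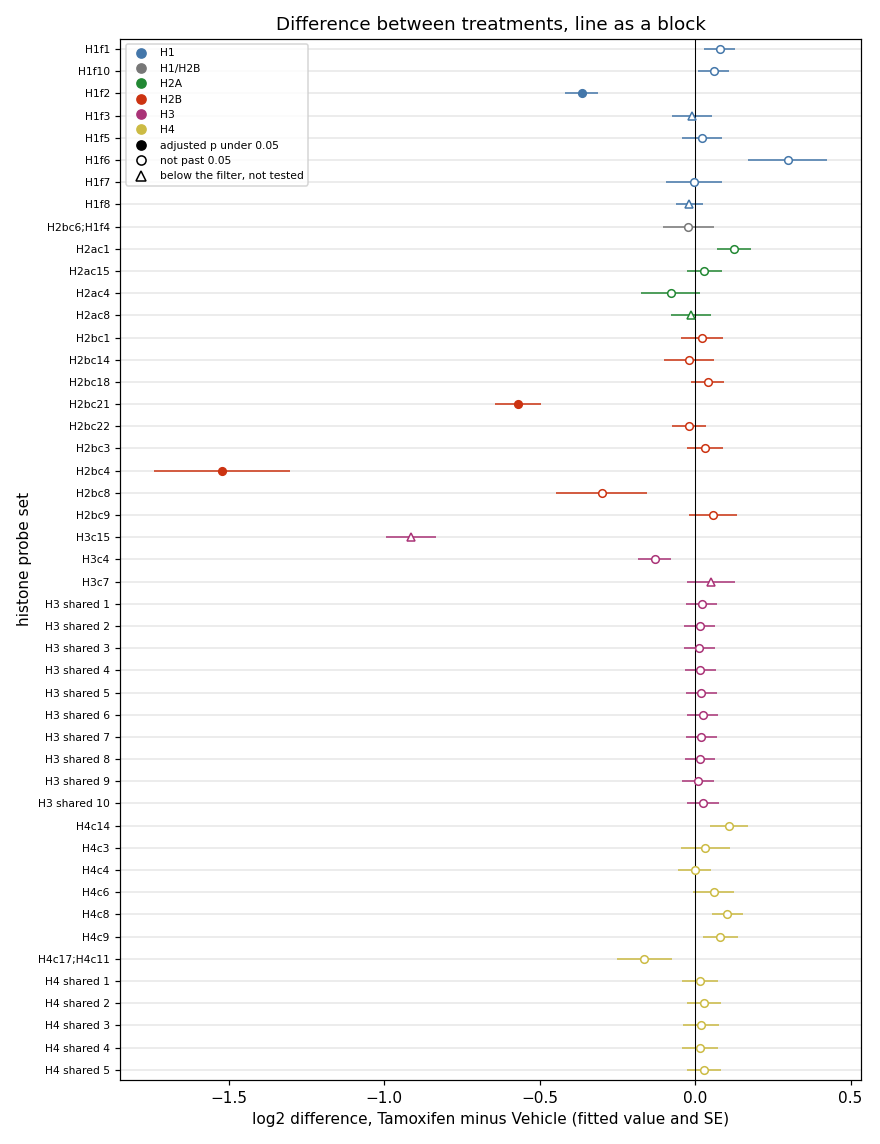
Fitted log2 difference, Tamoxifen minus Vehicle, with its SE for each histone probe set, coloured by class. Filled points passed an adjusted p of 0.05, triangles were below the filter and not tested. H2bc4, the untested H3c15 and H2bc21 lie lowest, followed by H1f2 at -0.37 and the uncalled H2bc8 at -0.30, and the highest is H1f6 at 0.30.

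H2bc4 had the largest difference of the 47 members. This H2B gene of the large histone cluster on chromosome 13 was formerly called Hist1h2bc. Its probe set gave 10.50, 10.31 and 10.46 log2 intensity on the Vehicle arrays of lines 14843, 14844 and 14846. On the Tamoxifen arrays it gave 8.28, 9.16 and 9.26. The groups do not overlap, and line 14843 had the lowest Tamoxifen value. H2bc4 was thus 2.87-fold lower. On the log2 scale this is -1.52 ± 0.22 (SE, n = 3 lines), at an adjusted p of 0.026 by limma. The within-line differences were -2.22, -1.15 and -1.20. The call ended without line 14844, at an adjusted p of 0.11, and without line 14846, at 0.052, and when probe sets without a symbol joined the fit, at 0.081.

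H2bc21, formerly Hist2h2be, lies in the smaller histone cluster on chromosome 3. Its probe set gave 7.93, 7.71 and 7.90 log2 intensity on Vehicle arrays and 7.19, 7.28 and 7.36 on Tamoxifen arrays, in the same order of lines. All 3 Tamoxifen values lie below all 3 Vehicle values. The fall was 1.48-fold, or -0.57 ± 0.07 (SE) in log2, at an adjusted p of 0.022 by limma. The call ended without line 14844 or 14846, at adjusted p-values of 0.10 and 0.062, and with unnamed probe sets in the fit, at 0.069.

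Its neighbour H3c15, an H3 gene next to H2bc21 in the RefSeq gene order of assembly GRCm38.p6, was below the filter and is named after its values were seen. It gave 6.32, 6.89 and 7.19 log2 intensity on Vehicle arrays and 5.62, 5.94 and 6.11 on Tamoxifen arrays. The groups do not overlap, though the lowest Vehicle value is close to the highest Tamoxifen value. Because 4 of these 6 values lie under the filter of 6.66, the size of the difference is uncertain and no fold is given. Fitted without the filter, the log2 difference was -0.91 ± 0.08 (SE), at an adjusted p of 0.013 by limma, and -0.76 with a pseudocount of 16. In that fit the call ended without the block, at 0.17, without line 14844, at 0.11, and with unnamed probe sets, at 0.060. H2ac20 and H2ac19, on the other sides of this pair, had no probe set of their own. Also of the chromosome 3 cluster, H2bc18 gave 0.04 ± 0.05 and H4c14 0.11 ± 0.06, neither past the threshold. The 10 shared H3 sets name H3c15 among 12 genes and differed by 0.01 to 0.03. Because they pool these genes, they cannot say whether H3c15 itself fell.

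H1f2, formerly Hist1h1c, encodes a somatic linker histone. It gave 9.27, 9.19 and 9.76 log2 intensity on Vehicle arrays and 8.89, 8.90 and 9.33 on Tamoxifen arrays. The groups overlap, because both arrays of line 14846 were high, but each line was lower under Tamoxifen. The within-line differences were -0.37, -0.29 and -0.43, which makes a 1.29-fold fall of -0.37 ± 0.05 (SE) in log2, at an adjusted p of 0.029 by limma. Without line as a block the adjusted p was 0.42, and it was 0.083, 0.14 and 0.087 without line 14843, 14844 and 14846, each of which ends the call. With unnamed probe sets in the fit it was 0.082.

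**Figure D3:**
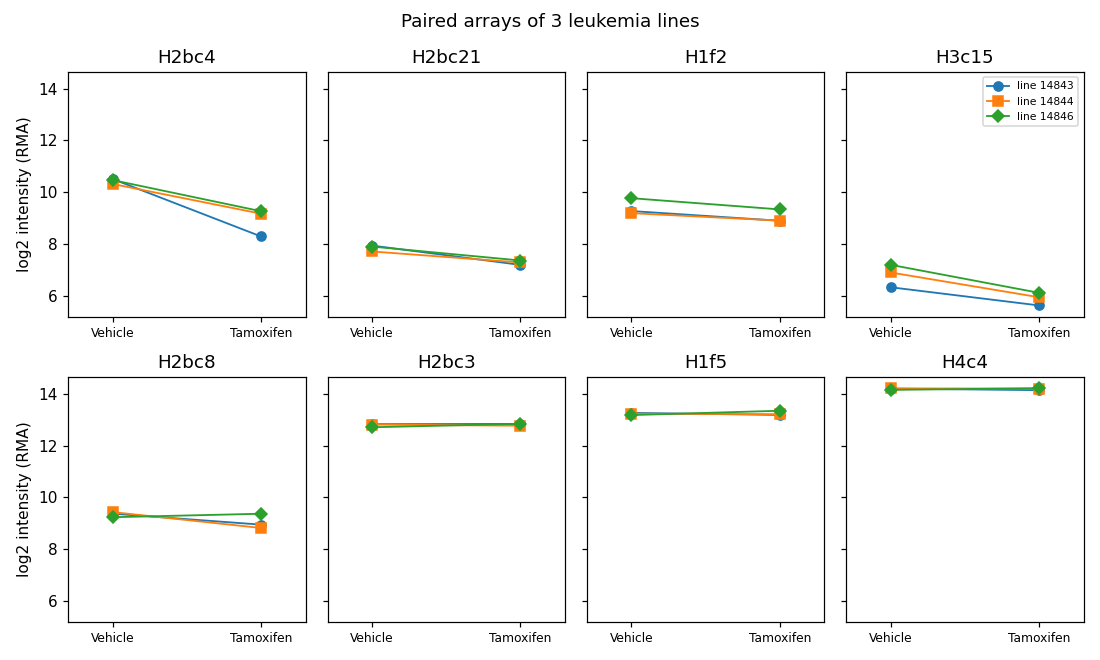
Log2 RMA intensity of 8 histone genes on the Vehicle and Tamoxifen arrays of each leukemia line, joined by line. All 3 lines are lower under Tamoxifen for H2bc4, H2bc21, H1f2 and H3c15 in the upper row, whereas H2bc8 is lower in 2 lines, and H2bc3, H1f5 and H4c4, at differences of 0.03, 0.02 and -0.00, were not called.

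Upstream sequence is shown for H1f2, which fell, and for the dim H3c15, beside H1f5 and H2bc3, members of the H1 and H2B classes that were not called. Each window holds the 250 bases before the RefSeq gene start on the gene's strand, in build GRCm38.p6, 5′ to 3′. Capitals mark the motifs searched, on either strand. These were the octamer ATTTGCAT known from H2B promoters, the CCAAT box, the TATA box written as TATAAA, and the palindrome AGGCCT at the core of the motif known for Zfx. The matches of these 4 motifs do not overlap in the windows shown. The promoter table held 42 of the 47 genes. H2bc4 and H2bc21 were not among those matched. H1f2 lies at chr13:23738557-23738806 on the plus strand, H3c15 at chr3:96239128-96239377 on the minus strand, H1f5 at chr13:21780626-21780875 on the minus strand and H2bc3 at chr13:23746484-23746733 on the plus strand.
H1f2: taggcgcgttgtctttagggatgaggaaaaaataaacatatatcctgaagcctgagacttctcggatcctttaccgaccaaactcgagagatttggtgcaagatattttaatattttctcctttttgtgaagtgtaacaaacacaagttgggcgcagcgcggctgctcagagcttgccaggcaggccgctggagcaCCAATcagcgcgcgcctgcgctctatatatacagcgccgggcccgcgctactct
H3c15: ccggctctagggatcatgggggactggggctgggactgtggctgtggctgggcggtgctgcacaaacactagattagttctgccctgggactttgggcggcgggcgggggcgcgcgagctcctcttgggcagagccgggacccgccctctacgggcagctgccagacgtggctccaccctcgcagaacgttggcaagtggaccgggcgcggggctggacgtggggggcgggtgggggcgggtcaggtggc
H1f5: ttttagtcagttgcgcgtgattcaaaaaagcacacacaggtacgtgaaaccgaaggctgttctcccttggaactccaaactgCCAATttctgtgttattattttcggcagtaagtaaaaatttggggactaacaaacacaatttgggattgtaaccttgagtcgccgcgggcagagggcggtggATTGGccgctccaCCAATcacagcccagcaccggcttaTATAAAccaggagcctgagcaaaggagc
H2bc3: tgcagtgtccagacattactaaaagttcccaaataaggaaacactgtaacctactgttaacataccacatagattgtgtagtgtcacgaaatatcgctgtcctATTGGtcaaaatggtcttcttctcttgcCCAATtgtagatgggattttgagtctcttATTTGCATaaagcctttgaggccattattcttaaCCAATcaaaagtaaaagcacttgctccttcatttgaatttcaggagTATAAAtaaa

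In these windows the H1f2 promoter held 1 CCAAT box and the H3c15 promoter none of the 4 motifs. H1f5 held 3 CCAAT boxes and 1 TATAAA, and H2bc3 held 3 CCAAT boxes, 1 TATAAA and 1 octamer. Across the 42 histone promoters, CCAAT was present in 71.4% and TATAAA in 50%, against 33.8% and 12.4% of the 32851 promoters in the table. The octamer was present in 5 of 8 H2B promoters and in 3 of 4 H2A promoters, and in 0 of the H1, H3 and H4 promoters, against 1.60% of all. These 8 matches are 6 sites, because H2ac1 and H2bc1, and H2ac8 and H2bc8, are divergent pairs whose windows overlap and hold the same site. AGGCCT was present in 3 of 42, 7.14%, against 8.70% of all promoters. These matches describe letters in the windows only.

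The other H2B genes did not pass the test. H2bc8 came nearest in size, at 9.37, 9.43 and 9.23 log2 intensity on Vehicle arrays and 8.94, 8.82 and 9.37 on Tamoxifen arrays. It was lower in lines 14843 and 14844 and higher in line 14846, and the fitted log2 value of -0.30 ± 0.15 (SE) had an adjusted p of 0.30 by limma. With line 14846 left out it was called lower. H2bc14, H2bc3, H2bc9, H2bc18, H2bc22 and H2bc1, the last a testis H2B, differed by -0.02 to 0.06. Each of their within-line differences was between -0.21 and 0.25. H2bc14, the brightest set of this class, gave 13.70, 13.77 and 13.63 on Vehicle arrays and 13.69, 13.56 and 13.80 on Tamoxifen arrays, so the lines went different ways around -0.02 ± 0.08. H2bc9 had the highest difference of the class, at 0.06 ± 0.08, from 12.79, 12.83 and 12.71 to 12.80, 12.74 and 12.96. H2bc3 moved from 12.83, 12.81 and 12.71 to 12.84, 12.77 and 12.84, with groups that overlap.

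No linker histone other than H1f2 passed the test. H1f1 and H1f5, both somatic and replication-dependent, differed by 0.08 ± 0.05 and 0.02 ± 0.07 (SE), with limma adjusted p-values of 0.40 and 0.87. H1f5 gave 13.26, 13.23 and 13.18 on Vehicle arrays and 13.18, 13.21 and 13.34 on Tamoxifen arrays. It was lower in lines 14843 and 14844 and higher in line 14846. H1f6, the testis linker histone, had the highest difference of all members, at 0.30 ± 0.13 and an adjusted p of 0.25. Its values were 7.16, 7.23 and 7.59 on Vehicle arrays and 7.21, 7.40 and 8.27 on Tamoxifen arrays, so the groups overlap and most of the difference came from line 14846. Without that line it was 0.11. The replication-independent H1f10 gave 0.06 ± 0.05 and the spermatid H1f7 gave -0.00 ± 0.09. H1f3 and the oocyte H1f8, both below the filter, differed by -0.01 and -0.02. H1f4 appeared only on a probe set it shares with H2bc6, at -0.02 ± 0.08, and H1f0 had no named probe set here.

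H2A, H3 and H4 had no called member among 26 tested by limma, and 0 at an unadjusted p under 0.05. In H2A, the testis gene H2ac1 gave 9.89, 10.01 and 9.89 log2 intensity on Vehicle arrays and 10.02, 10.06 and 10.08 on Tamoxifen arrays. The groups do not overlap, but the difference of 0.13 ± 0.05 (SE) had a limma adjusted p of 0.25. H2ac4 gave 11.75, 11.87 and 11.62 against 11.71, 11.54 and 11.75, or -0.08 ± 0.10, with the lines going different ways. H2ac15 gave 0.03 ± 0.06, and H2ac8 was below the filter, at -0.01. In H3, H3c4 was lower in each line, at -0.20, -0.12 and -0.07, with a fitted difference of -0.13 ± 0.05 and a limma adjusted p of 0.23. The brightest of the 10 shared H3 probe sets gave 14.32, 14.37 and 14.26 on Vehicle arrays and 14.33, 14.35 and 14.35 on Tamoxifen arrays. All 10 differed by 0.01 to 0.03, and the dim H3c7 by 0.05.

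In H4, H4c14 and H4c8 had Tamoxifen values above all Vehicle values, at 0.11 ± 0.06 and 0.10 ± 0.05. H4c14 moved from 13.61, 13.59 and 13.52 to 13.64, 13.65 and 13.76, with line 14846 the highest. H4c4, the brightest H4 set of a single gene, gave 14.20, 14.21 and 14.15 against 14.14, 14.20 and 14.21. H4c9, H4c6, H4c3 and H4c4 differed by -0.00 to 0.08, the 5 shared H4 sets by 0.02 to 0.03, and the set naming H4c17 and H4c11 by -0.16 ± 0.09. That last set was lower in lines 14843 and 14844, by -0.37 and -0.16, and higher in line 14846, by 0.05.

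All 3 members called lower were among the 16 tested members with a mean at or below 12, or 18.8% of these, against 4.56% of the 14940 tested probe sets at or below 12. The cut at 12 was not planned, so this share only describes where the 3 calls lie. None of the 26 brighter members was called by limma, and 0 of them had an unadjusted p under 0.05. Over the whole array, 0.276% of the 1447 tested probe sets with a mean above 12 were called in either direction, all 4 of them lower. The values of the 26 bright members spanned between 0.07 and 0.25 log2 units over the 6 arrays. Whether a difference in the mRNA would still show in signal this near the top of the scale was not tested.

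Within lines, histone probe sets leaned in different directions. The median within-line difference over the 42 tested members was -0.0085 in line 14843, -0.019 in line 14844 and 0.12 in line 14846. In line 14846 the difference was positive for 38 of 42 members, 90.5%, against 56.5% of all tested probe sets. It was positive for 19 members in line 14843 and for 9 in line 14844, where 21.4% of members stand against 55.4% of all tested probe sets. These counts include the 15 shared H3 and H4 sets, which are not independent readings. Of those, 15 were positive in line 14846 and 1 in line 14844. Among the 25 tested members that name 1 gene, 21 were positive in line 14846, or 84%, and 8 in line 14844. The median of the DNA replication and S phase list, 36 genes such as the Mcm helicase and Rfc clamp loader subunits, was 0.10, -0.02 and 0.19 in the same order of lines. The median of 15 mitosis genes was -0.01, -0.05 and 0.23. The part of these cell cycle genes in the histone values was not tested, and with 1 pair of arrays a line the difference between lines was not tested either.

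**Figure D4:**
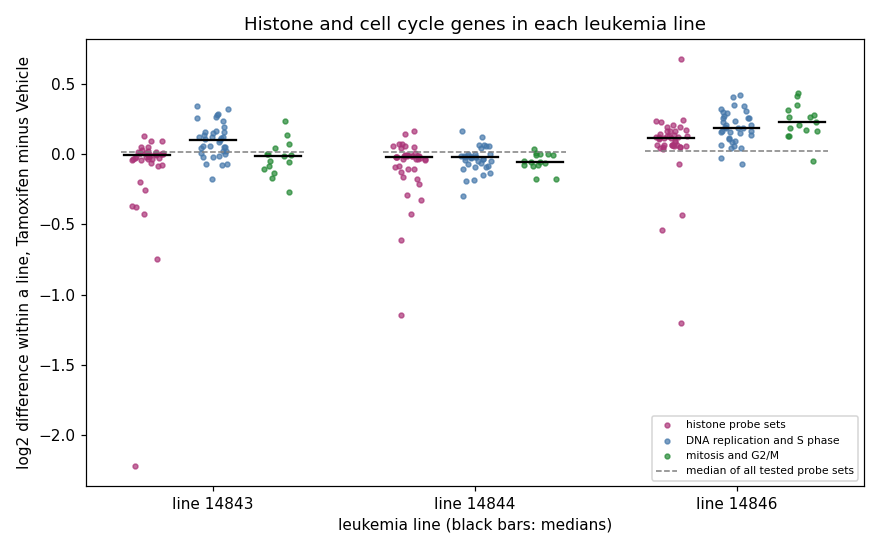
Log2 difference, Tamoxifen minus Vehicle, within each leukemia line for the 42 tested histone probe sets, 36 DNA replication genes and 15 mitosis genes, with black bars at the medians and a dashed line at the median of all tested probe sets. Histone medians are -0.0085, -0.019 and 0.12 in lines 14843, 14844 and 14846.

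Between treatments, the cell cycle lists had no called gene. Of 36 DNA replication genes 0 changed by limma, while 5 were higher and 0 lower at an unadjusted p under 0.05, where 10.3% of all tested probe sets were higher by that measure. A positive difference was found for 32 of the 36 and for 59.2% of all tested probe sets. The median was 0.08, against 0.03 over all tested probe sets. Rfc3 and Rfc4 had the smallest p, at 0.27 ± 0.06 and 0.25 ± 0.06 (SE). Of 15 mitosis genes 0 changed by limma and 0 had an unadjusted p under 0.05, with a median of 0.03 and a positive difference for 14. Cdc20, an activator of the anaphase-promoting complex, gave 0.16 ± 0.07, and the mitotic kinase Plk1 gave 0.14 ± 0.07.

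Genes that make and process histone mRNA held no call. Of 27 tested genes, among them Slbp, the histone gene activator Npat and the U7 snRNP proteins Lsm10 and Lsm11, 0 changed by limma. At an unadjusted p under 0.05, 2 were higher and 2 lower, and the median was 0.0035. Casp8ap2, needed for histone gene expression in S phase, gave 0.28 ± 0.07 (SE), and Lsm11 gave -0.18 ± 0.05, with adjusted p-values of 0.10 and 0.11. Slbp itself gave 0.06 ± 0.09 and Npat 0.03 ± 0.10.

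Among histone chaperones 1 of 25 tested genes was called, near the 5.22% of all tested probe sets. Set, a histone-binding protein of the nucleosome assembly family, gave 7.96, 8.05 and 8.07 log2 intensity on Vehicle arrays and 7.66, 7.76 and 7.78 on Tamoxifen arrays, with no overlap between groups. It fell by 0.29 on the log2 scale, with a limma adjusted p of 0.037, but of 0.079 without line as a block, and leaving out any line ended the call. Nasp, which carries H3 and H4 and H1, gave 0.26 ± 0.08 (SE) and did not pass. The list's median was 0.01.

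Of 9 tested replacement histones and other variants 1 fell, where 4.18% of all tested probe sets did. It was H2ax, which marks DNA breaks when phosphorylated. It gave 11.74, 11.87 and 11.77 log2 intensity on Vehicle arrays and 11.23, 11.42 and 11.53 on Tamoxifen arrays. Each Tamoxifen value is below each Vehicle value, and the fitted log2 value of -0.40 ± 0.07 (SE) had an adjusted p of 0.043 by limma. The adjusted p was 0.096 without line as a block, 0.11 without line 14843, 0.22 without line 14844 and 0.051 without the filter, each of which ends the call. The replacement H2A gene H2az1 gave 0.06 ± 0.06 and the H3.3 gene H3f3a gave -0.07 ± 0.05, and the median of the list was 0.05. H2ax is not a member of the set described here. H2ax was lower in each of the 3 lines.

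The leukemias were also compared with each other. By limma's moderated F test of the line terms, 1 of 42 tested members passed, H1f2, a share near the 2.74% of all tested probe sets. It averaged 9.08 ± 0.26, 9.04 ± 0.20 and 9.55 ± 0.31 log2 intensity in lines 14843, 14844 and 14846 (SD, n = 2 arrays each), with an adjusted p of 0.037. The 2 arrays are the Vehicle and Tamoxifen arrays of a line, so these SDs hold the treatment difference and not replicate spread. H1f10 was at 8.21 ± 0.07, 7.81 ± 0.03 and 7.84 ± 0.03 and came close, at 0.052. It passed when eBayes used trend and robust settings, at 0.046, and when only the brightest probe set with 1 symbol was kept for each gene, at 0.049. H1f6 had a wider span between line averages than H1f2, 0.75 against 0.51, and did not pass, at 0.13. The median spread between line averages was 0.05 over tested members and 0.13 over all tested probe sets. It was 0.04 over the 26 members with a mean above 12, of which 15 are shared H3 or H4 sets. Over the 16 tested members at or below 12 it was 0.13, as over the whole array.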

How the data were processed

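RNA from 6 samples was hybridised to Affymetrix arrays, 3 in each treatment group. The authors deposited linear-scale intensity for each probe set. The submitters' processing notes name Affymetrix Expression Console 1.1 with RMA. RMA equalises the distribution of probe intensities across arrays, so differences in total signal are removed. Total RNA was labelled with the Ambion WT kit from 200 ng, per the labels' protocols. Log2 of each intensity was taken, with no pseudocount.

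Symbols came from the platform annotation: 21789 probe sets had 1 symbol, 1621 several and 12146 none. The 23410 named probe sets were kept, and those with a mean log2 at or above the 30th percentile, 6.66, were tested, 16387 in all. Limma 3.58.1 in R 4.3.3 (lmFit, eBayes with default settings) was fitted with line and treatment as terms. Two-sided p-values were adjusted with the Benjamini-Hochberg method across every tested probe set. Each probe set had 2 residual degrees of freedom, to which moderation added 3.34. The pairing by line comes from the series design: deviations from group means correlated at 0.61, 0.66 and 0.67 between arrays of one line. Other settings are described in the closing section. For genes of lists, the brightest probe set with 1 symbol was used, and probe sets with several symbols were left out.

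Members and lists were chosen with earlier results of these data known. The rule for named genes took every called member, the highest, lowest and brightest tested member of each class, and from each list up to 4 called genes or else the 2 with the smallest p. Other members are named because each is accounted for, and Slbp, Npat, Nasp, Lsm10, H2az1, H3f3a and the blood cell markers were named in addition. The fitting code was tested on simulated data, with a set difference given to 200 of 16387 probe sets. The share of these recovered was 39.2% at a log2 size of 0.3, 95.4% at 0.5, 99.4% at 1 and 100% at 2. A difference of 0.3 was therefore missed more often than found in that test. False calls stood at 8.9%, against the threshold of 0.05 used for calls. The number of arrays limits the precision. No protein sequences were used here.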

Additional observations from a re-analysis of the deposited data

Results flagged for a closer look

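The lines did not lean the same way over the histone probe sets. The median within-line log2 difference over the 42 tested members was -0.0085 in line 14843, -0.019 in line 14844 and 0.12 in line 14846. H2ac4 differed by -0.040, -0.33 and 0.13 in lines 14843, 14844 and 14846, and H2bc14 by -0.013, -0.21 and 0.16. These differences between lines were not tested, because each line has 1 array under each treatment.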

How the results depend on the processing

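Calls depended on line as a block, on which lines entered the fit and on whether unnamed probe sets did. Over all tested probe sets 856 were called, but 277 without line as a replicate block and 182 when probe sets without a symbol joined the fit. With any line left out, the fit has 1 residual degree of freedom. The count then ran from 3 to 473, lowest without line 14844. Without the block H1f2, Set and H2ax lost their calls. H3c15 was not tested in the main fit, and its call in the fit without the filter also ended without the block. Of the 3 histone calls, 2 were made without the replicate block, 0 to 2 with a line left out, and 0 with unnamed probe sets. The direction of H2bc4, H2bc21, H1f2 and H3c15 was the same under every setting run. The count of members that differ between lines was 1, but 2 with trend and robust settings, 0 with unnamed probe sets and 2 with 1 probe set per gene. The 1 call among chaperones became 0 without the replicate block and 0 with any line left out. That among replacement histones became 0 without the block, 0 without the filter, and 0 to 1 with a line left out. The cause of these changes in the calls was not tested. Uncalled members changed sign when a line was left out: H1f5 from -0.050 to 0.073, H2ac4 from -0.18 to 0.047, H2ac15 from -0.016 to 0.055, H2bc9 from -0.037 to 0.13, H2bc14 from -0.11 to 0.075, H4c4 from -0.033 to 0.028 and the brightest shared H3 set from -0.0045 to 0.044. The members' median stayed between -0.02 and 0.04. Signal near background limits what the 5 dim members can show.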

Other observations

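A further 9 probe sets name histone genes together with a symbol outside the families counted here and were not members. Of these, 7 name H2B genes with H4bc24, 2 of which had identical values on each array, and differed by -0.03 to -0.01 on the log2 scale. The other 2 name H2A genes with H2ax and others, and differed by 0.02 and 0.03. All 9 had mean log2 intensities between 13.85 and 14.09, and 0 were called by limma or had an unadjusted p under 0.05. The 7 H2B sets include H2bc4 among 14 or 15 genes, and show no fall of the size seen on the probe set of H2bc4 alone. Because they pool these genes, they cannot say whether H2bc4 itself fell.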
